A study of Mus musculus with 9 samples.

Results

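The respiratory chain genes of the mouse are carried by the mitochondrial and the nuclear genome, and both sets are described here in the cells of tumour ascites. Members were taken by symbol alone: mt-Nd, mt-Co, mt-Atp and mt-Cytb in the mitochondrial genome, and Nduf with a, b, c, s or v, Sdha to Sdhd, Uqcr, Cyc1, Cycs, Cox4 to Cox8 and Atp5 in the nuclear genome. The rule found 111 of the 27998 genes in the matrix, all annotated as protein coding. Of these, 13 were mitochondrially encoded and 98 nuclear. The nuclear members comprised 84 subunits (cytochrome c included), 11 assembly factors caught by the symbols Ndufaf and Sdhaf, and 3 others, Atp5s, Atp5sl and Cox7a2l.

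The study concerns iron chelation in metastatic ovarian cancer. Its 10x Genomics library holds cells of the ascites, the fluid of the peritoneal cavity, of B6_WT mice with ID8-Def29/Vegf ovarian cancer; the labels used here give no treatment, age or number of animals for it. A further 8 libraries come from cultured ID8-Def29/Vegf cells, 4 with vehicle and 4 with deferiprone, an iron chelator, for 12 h, and they were not analysed here. All values below therefore come from 1 library, and no difference has a replicate check or a p-value.

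The chain passes electrons from complex I and complex II through complex III and cytochrome c to complex IV, where oxygen is reduced, and complex V uses the proton gradient that is built up on the way to make ATP. Complexes I, III, IV and V are assembled from subunits of both genomes, and complex II from nuclear subunits only. Electrons move through iron-sulfur clusters in complexes I, II and III and through haem groups in complexes III and IV and cytochrome c.

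Barcodes with 500 or more UMIs (unique molecular identifiers), 200 or more detected genes and a mitochondrial share no higher than 15% were kept, 6442 in all. Tumour-like cells had 3 or more UMIs of Krt8, Krt18, Krt19, Wt1 and Upk3b together and no more than 1 of the complement genes C1qa, C1qb and C1qc; macrophages had the reverse. There were 3660 tumour-like cells with a median of 5007 UMIs and 1076 macrophages with a median of 1639.5. The macrophage name was met by all 8 check markers outside the rule, which summed to 24963 CPM (UMIs per 1e6 UMIs of the class) against 112 in tumour-like cells. Of the 8 check markers for tumour-like cells, only 4 reached a mean of 10 CPM over the classes. These were Krt7, Upk1b, Lgals7 and Cp, all higher in tumour-like cells. The other check markers stayed under that mean, among them Cdh1 with 0 UMIs and Epcam with 24. Keratins, Wt1 and Upk3b are shared by normal mesothelium, so tumour cells and mesothelial cells cannot be told apart by the rule, and the class keeps the name of the rule. Among markers of other cells, haemoglobin genes summed to 11641 CPM in macrophages and 1667 in tumour-like cells, and the fibroblast genes to 29.4 and 373 CPM. The neutrophil genes summed to 140 and 3.50 CPM, the B cell genes to 27.3 and 2.25, and the T cell genes to 3.15 and 0.100. Their part in the differences below was not tested.

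The chain's transcripts made up a smaller share of the RNA of macrophages than of tumour-like cells, and the gap was widest for the genes of the mitochondrial genome. A gene was counted as measured at a mean of 10 CPM over the classes, which 98 members passed and 13 did not. Of the 98, 23 were lower in macrophages by 2-fold or more and 0 were higher. Over all 6278 measured genes 28.7% were lower and 16.1% higher by the same rule, so that the members' share on the lower side, 23.5%, was near the background. When every ratio was divided by the median ratio of all measured genes, 0.778, the split of all genes became 20.4% lower and 20.6% higher, and 9 members were past 2-fold, all lower. The median log2 ratio of macrophages over tumour-like cells was -0.49 for the members and -0.36 for all measured genes, and 57 members lay below the median gene and 41 above it. The interval of the ratio lay below 1 for 70 members, above 1 for 8 and included 1 for 20. These intervals, like all others here, are 95% intervals that cover counting error only.

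The values of the 2 genomes lay apart. All 12 measured mitochondrially encoded members lay below the median gene, with a median log2 ratio of -1.09, and 8 of them (66.7%) were lower by 2-fold or more. The 77 measured nuclear subunits were split evenly around the median gene, 39 below and 38 above, with a median log2 ratio of -0.37. Of these, 13 (16.9%) were lower by 2-fold or more, where the share over all measured genes was 28.7%. Summed over its genes, the mitochondrial set was at 37659 CPM in tumour-like cells and 17547 CPM in macrophages, a ratio of 0.466 (0.461 to 0.471). The nuclear subunits were at 55797 CPM and 36777.5 CPM, a ratio of 0.659 (0.654 to 0.664). Divided by the median ratio, these became 0.599 and 0.847.

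**Figure D1:**
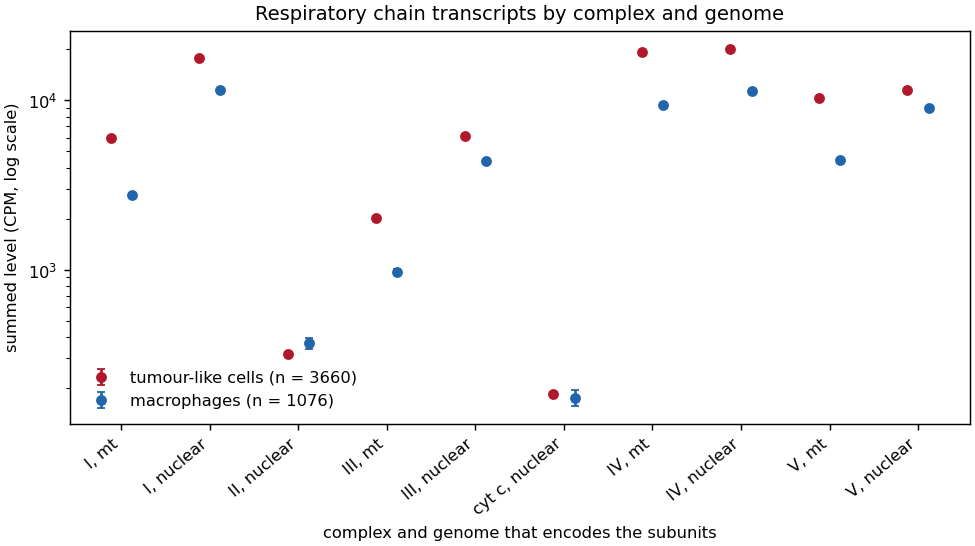
Summed level in CPM (vertical axis, log scale) of the respiratory chain subunits by complex and encoding genome, in 3660 tumour-like cells and 1076 macrophages of 1 library; bars are exact Poisson 95% intervals and are mostly smaller than the points. Macrophages lie lower in every group except complex II, where they lie higher, and cytochrome c, where the interval of the ratio includes 1.

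In the mitochondrial genome, transcripts of all 4 complexes it contributes to were lower in macrophages. For complex I the sum was 6011 CPM in tumour-like cells and 2755 in macrophages, a ratio of 0.458 (0.446 to 0.471). Complex III, represented by mt-Cytb, had a ratio of 0.478 (0.455 to 0.5003), complex IV one of 0.487 (0.479 to 0.494) and complex V one of 0.429 (0.420 to 0.439). The sums of the complexes thus moved within a narrow range.

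Single genes were more spread. mt-Nd2, a membrane subunit of complex I, had the lowest ratio of the genome at 0.327 (0.305 to 0.350), with 1362 CPM in tumour-like cells and 445 in macrophages. mt-Nd3 was at 448 and 174 CPM (ratio 0.388) and mt-Nd4 at 1333 and 564 CPM (0.423), and these also passed 2-fold. The remaining complex I genes did not. mt-Nd1 was at 2646 and 1452 CPM (0.549), mt-Nd5 at 168 and 88.7 (0.528), and mt-Nd4l at 47.1 and 27.3 (0.580). mt-Nd6, which is read from the opposite strand to the other protein genes, had 136 and 8 UMIs, too few to count as measured.

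The catalytic core of complex IV is formed by the products of mt-Co1, mt-Co2 and mt-Co3. mt-Co1 (chrM:5328-6872) was at 9703 CPM in tumour-like cells and 4496 in macrophages (0.463, 0.453 to 0.473), and mt-Co3 at 6341 and 3118 CPM (0.492). mt-Co2, the subunit that takes electrons from cytochrome c, was at 3278 and 1791 CPM, and its ratio of 0.546 did not pass 2-fold. For mt-Cytb the levels were 2028 and 969 CPM (0.478). Of the complex V genes, mt-Atp6, which forms part of the proton channel, was at 10213 and 4387 CPM (0.430), and mt-Atp8 at 84.2 and 31.5 CPM (0.374). mt-Atp8 overlaps mt-Atp6 and mt-Nd4l overlaps mt-Nd4, so that reads in the overlaps may be split between the genes, and nuclear copies of mitochondrial sequence may share reads with any of them.

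The composition of the mitochondrial RNA shifted by less than its amount. mt-Co1 made up 25.8% (25.7 to 25.9%) of mitochondrial UMIs in tumour-like cells and 25.6% (25.2 to 26.1%) in macrophages. mt-Nd2 made up 3.62% (3.58 to 3.66%) and 2.54% (2.37 to 2.71%), mt-Nd1 7.03% and 8.27%, and mt-Co2 8.71% and 10.2%. The intervals of mt-Co1 overlap between the classes, whereas those of mt-Nd2, mt-Nd1 and mt-Co2 do not.

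**Figure D2:**
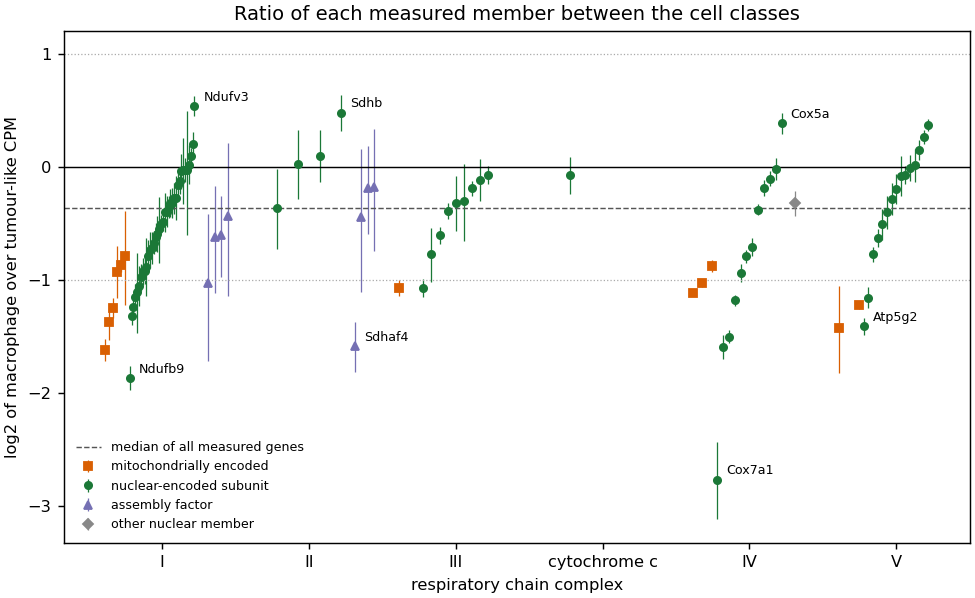
Log2 ratio of macrophage over tumour-like CPM (vertical axis) for the 98 measured members, placed by complex (horizontal axis) and ordered by ratio within each kind; bars are exact conditional binomial 95% intervals. Dotted lines mark 2-fold and the dashed line the median of all measured genes at -0.36; Cox7a1 lies lowest, Ndufv3 highest, and every mitochondrially encoded gene lies below the dashed line.

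Complex I takes electrons from NADH and has the largest set of nuclear subunits, 36, all of which were measured. Their sum was 17668 CPM in tumour-like cells and 11547 CPM in macrophages (0.654, 0.645 to 0.662), with a median log2 ratio of -0.49. Of the 36, 6 (16.7%) passed 2-fold, all lower, beside 28.7% of all measured genes. Ndufb9 (chr15:58933756-58939488), an accessory subunit of the membrane arm, was lowest, with 1395 CPM in tumour-like cells and 384 in macrophages (0.275, 0.255 to 0.296). The accessory subunits Ndufa6 (1605 and 646 CPM, 0.402), Ndufa7 (1541 and 656 CPM, 0.426), Ndufb4 (755 and 341 CPM, 0.451) and Ndufs4 (289 and 140 CPM, 0.484) followed. Ndufv1, which binds NADH and the flavin cofactor, was at 78.8 and 36.7 CPM (0.466). At the other end was Ndufv3, an accessory subunit of the same NADH-binding module, with 424 CPM in tumour-like cells and 618 CPM in macrophages (1.46, 1.37 to 1.55). Ndufv1 and Ndufv3 thus lay on opposite sides of the median gene. Of the 7 complex I assembly factors, 4 were measured, and Ndufaf4 was lower by 2-fold or more (470 and 22 UMIs, 23.5 and 11.5 CPM, ratio 0.491, 0.305 to 0.752).

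Complex II, succinate dehydrogenase, belongs to both the chain and the citric acid cycle, and it was the complex whose summed subunit level was higher in macrophages. The sum of its 4 subunits was 318 CPM (310 to 326) in tumour-like cells and 369 CPM (342 to 397) in macrophages, a ratio of 1.16 (1.07 to 1.25). The iron-sulfur subunit Sdhb was the 1 subunit with an interval above 1, at 135 and 189 CPM (1.40, 1.25 to 1.56). The membrane anchors Sdhc and Sdhd had 82.4 and 88.7 CPM (1.08, 0.913 to 1.26) and 51.4 and 52.5 CPM (1.02, 0.823 to 1.26), and both intervals include 1. The flavoprotein subunit Sdha was at 49.1 and 38.3 CPM (0.780, 0.606 to 0.990), at about the ratio of the median gene. No subunit passed 2-fold. Among its 4 assembly factors, Sdhaf4, which binds Sdha before the complex is put together, was lower in macrophages, with 279.98 CPM in tumour-like cells and 93.4 CPM in macrophages (0.334, 0.286 to 0.387).

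Complex III passes electrons from ubiquinol to cytochrome c, and its 9 nuclear subunits summed to 6113 CPM in tumour-like cells and 4392 in macrophages (0.719, 0.703 to 0.735). Only the small subunit Uqcr10 passed 2-fold (1509 and 719 CPM, 0.477, 0.451 to 0.503). Uqcrb was highest, at 760 and 725 CPM (0.955, 0.903 to 1.01). The Rieske iron-sulfur protein Uqcrfs1 was at 151 and 140.1 CPM (0.928, 0.816 to 1.05), and the haem-bearing cytochrome c1, Cyc1, at 139 and 81.9 CPM (0.587, 0.496 to 0.690). Cyc1 was therefore below the median gene, whereas Uqcrfs1 and Uqcrb lay above it with intervals that include 1. Cytochrome c itself, Cycs, the mobile carrier between complexes III and IV, was at 185 and 176 CPM (0.952, 0.849 to 1.07).

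Complex IV had the lowest summed ratio of the nuclear subunits. Its 19 genes summed to 19979 CPM in tumour-like cells and 11341 CPM in macrophages (0.568, 0.560 to 0.575). Of the 12 that were measured, 4 (33.3%) passed 2-fold, all lower, beside 28.7% of all measured genes. The median log2 ratio was -0.74. Cox6c (chr15:35925886-35938246) was at 4208 CPM in tumour-like cells and 1491 in macrophages (0.354, 0.341 to 0.368). Cox8a was at 3985 and 1763 CPM (0.442, 0.427 to 0.458). Ndufa4, a complex IV subunit in spite of its name, was at 1194 and 397 CPM (0.333, 0.309 to 0.358). Cox7a1, the form of subunit VIIa known from heart and skeletal muscle, is described with the isoforms below. Against this direction, Cox5a, a subunit on the matrix side, was at 402 and 527 CPM (1.31, 1.23 to 1.40). Cox7a2l, which takes part in joining complexes III and IV into supercomplexes, was at 459 and 369 CPM (0.804), close to the median gene.

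In complex V, ATP synthase, the summed nuclear subunits departed less than those of complexes I, III and IV. The 15 genes summed to 11535 CPM in tumour-like cells and 8953 CPM in macrophages (0.776, 0.764 to 0.788), close to the 0.778 of the median gene. The catalytic subunits of its head showed modest ratios: Atp5a1 was at 159 and 151 CPM (0.950, 0.839 to 1.07), and Atp5b at 293 and 223 CPM (0.761, 0.688 to 0.839). The 2 members past 2-fold both encode the c subunit of the membrane ring. Atp5g1 was at 1132 and 509 CPM (0.450, 0.421 to 0.480) and Atp5g2 at 2026 and 764 CPM (0.377, 0.358 to 0.398). The other gene for the same protein, Atp5g3, was at 349.6 and 247 CPM (0.705, 0.641 to 0.774), so that the forms of one subunit moved unequally. Atp5l, a subunit of the membrane part, was the highest at 1301 and 1691 CPM (1.30, 1.25 to 1.35). Atp5g1, Atp5g2 and Atp5g3 encode the same mature protein, and shared reads between them cannot be told apart.

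Within each complex of both genomes, the mitochondrial UMIs were divided by the nuclear ones. This quotient was 0.340 in tumour-like cells and 0.239 in macrophages for complex I, and 0.332 and 0.221 for complex III. For complex IV it was 0.967 and 0.829, and for complex V 0.893 and 0.493. It was lower in macrophages for each of these complexes, with the widest gap for complex V.

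Promoters are printed for nuclear members that hold the NRF1 motif described below, whose products sit in different complexes and whose ratios differed. These examples share the motif by choice, and most members of either behaviour lack it. RefSeq windows on GRCm38.p6, from 250 bases before to 50 bases after the transcription start, were found for 81 of the 98 nuclear members (87 windows). They were searched on both strands for GCGCATGC, part of the recognition site of the nuclear respiratory factor NRF1, whose matches on opposite strands can overlap. Atp5g2 (chr15:102670998-102671297, minus strand) and Ndufa6 (chr15:82354242-82354541, minus strand) were lower in macrophages by 2-fold or more. Cycs (chr6:50566520-50566819, minus strand) and Sdhb (chr4:140961021-140961320, plus strand) were not. Capitals mark matches to GCGCATGC and, in Sdhb, also the match to the ETS motif CCGGAAG.
Atp5g2: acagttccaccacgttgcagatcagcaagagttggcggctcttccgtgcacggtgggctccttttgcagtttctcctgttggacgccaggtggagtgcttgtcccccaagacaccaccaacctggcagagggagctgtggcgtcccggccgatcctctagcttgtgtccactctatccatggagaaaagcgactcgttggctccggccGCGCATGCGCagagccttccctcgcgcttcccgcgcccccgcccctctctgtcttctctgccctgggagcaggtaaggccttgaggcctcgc
Ndufa6: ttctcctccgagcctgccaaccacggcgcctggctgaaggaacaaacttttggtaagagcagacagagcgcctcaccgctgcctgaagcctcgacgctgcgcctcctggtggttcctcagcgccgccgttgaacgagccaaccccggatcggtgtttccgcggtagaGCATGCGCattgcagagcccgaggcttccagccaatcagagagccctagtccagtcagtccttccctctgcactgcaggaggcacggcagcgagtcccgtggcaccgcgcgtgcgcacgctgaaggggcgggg
Cycs: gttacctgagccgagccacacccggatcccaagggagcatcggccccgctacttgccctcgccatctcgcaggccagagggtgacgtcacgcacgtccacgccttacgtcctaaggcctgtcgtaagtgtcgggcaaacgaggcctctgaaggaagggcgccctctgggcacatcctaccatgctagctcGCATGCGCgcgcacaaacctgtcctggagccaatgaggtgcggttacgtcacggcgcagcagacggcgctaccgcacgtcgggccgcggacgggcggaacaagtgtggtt
Sdhb: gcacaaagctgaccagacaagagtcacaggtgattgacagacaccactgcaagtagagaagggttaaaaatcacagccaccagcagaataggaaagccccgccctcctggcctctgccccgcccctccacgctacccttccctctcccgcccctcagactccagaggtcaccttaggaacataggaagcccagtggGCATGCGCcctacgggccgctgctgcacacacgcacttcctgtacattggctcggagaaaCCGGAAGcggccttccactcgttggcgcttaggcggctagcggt

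The match began 60 bases before the start in Cycs, 83 before it in Ndufa6 and 54 before it in Sdhb, and in Atp5g2 overlapping matches on both strands began 42 and 40 bases before it. The NRF1 letters were in 14.9% of the members' windows and in 2.71% of all 32851 windows. AAGATGGC, for YY1, was in 13.8% and 2.75%, CCGGAAG, for ETS factors such as GABP, in 23.0% and 8.86%, and TCAAGGTCA, for ESRRA, in 2.30% and 0.423%. Most YY1 matches began after the transcription start, for instance 23 bases after it in Ndufa3 and 36 in Ndufs4, whereas those of Atp5f1 and Atp5j began before it. By gene, the NRF1 letters were in 3 of 13 members lower by 2-fold or more (Atp5g2, Ndufa6 and Ndufaf4) and in 9 of 61 measured members that were not. The ETS letters were in 1 of 13 and 18 of 61, the YY1 letters in 1 of 13 and 9 of 61, and the ESRRA letters in 0 of 13 and 2 of 61, so that the motifs did not all lean the same way. A match describes letters and shows neither binding nor a cause.

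Several subunits of complex IV exist as tissue forms, and of these forms only Cox7a1 counted as measured. Cox7a1 (chr7:30184144-30186078) had 5193 UMIs in tumour-like cells and 73 in macrophages, or 259.7 CPM (252.7 to 266.9) and 38.3 CPM (30.02 to 48.2), a ratio of 0.147 (0.115 to 0.186). This was the lowest ratio of all measured members. Even the macrophage level was near what free RNA would give: estimates from the profiles of barcodes with 1 to 50 and with 100 to 200 UMIs came to 30.6 and 31.4 CPM. After their subtraction from both classes the ratio was 0.0334 and 0.0303. A UMI of Cox7a1 was found in 59.4% of tumour-like cells and 6.41% of macrophages. With each cell thinned to 1000 UMIs, which left out 50 tumour-like cells and 126 macrophages below that depth, it was found in 21.0% (19.7 to 22.4%) and 3.58% (2.49 to 4.97%). The widely expressed counterpart Cox7a2 was at 1143 and 703 CPM (0.615, 0.581 to 0.649).

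Ndufa4l2, the paralogue of Ndufa4 known to respond to low oxygen, had 229 UMIs in 135 tumour-like cells and 1 UMI in macrophages. Its levels of 11.5 and 0.525 CPM were 21.8-fold apart with a counting interval of 3.88 to 866, and their mean lay under the 10 CPM required of a measured gene. Cox6b2, the testis form of subunit VIb, was at 2.45 CPM in tumour-like cells (49 UMIs) and 8.92 CPM in macrophages (17 UMIs), a ratio of 3.64 (1.97 to 6.43) at a level also under 10 CPM. Its common form Cox6b1 was at 1125 and 1050.4 CPM (0.934, 0.892 to 0.977). Cox4i2, the lung form of subunit IV, had 9 and 5 UMIs, beside 2402 and 1853 CPM for Cox4i1 (0.772, 0.745 to 0.798). Cox8b had 4 and 0 UMIs, Cox8c had 1 and 0, and Cox7b2 had none in the kept cells.

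Cox6a2, the muscle form of subunit VIa, had a different distribution. It had 9 UMIs in tumour-like cells and 5 in macrophages, against 1379 and 723 CPM for the common form Cox6a1 (0.524, 0.496 to 0.553). Of the 54 UMIs of Cox6a2 in all kept cells, 27 were in 10 of the 15 cells with plasmacytoid dendritic markers, Siglech and Ccr9. This was a level of 2046 CPM (1348 to 2976) and a share of 66.7% (38.4 to 88.2%) of those cells at a median of 868 UMIs. In tumour-like cells 0.246% and in macrophages 0.372% of cells had a UMI, at higher median depths. The class holds 15 cells of 1 library, so its level describes those cells only.

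**Figure D3:**
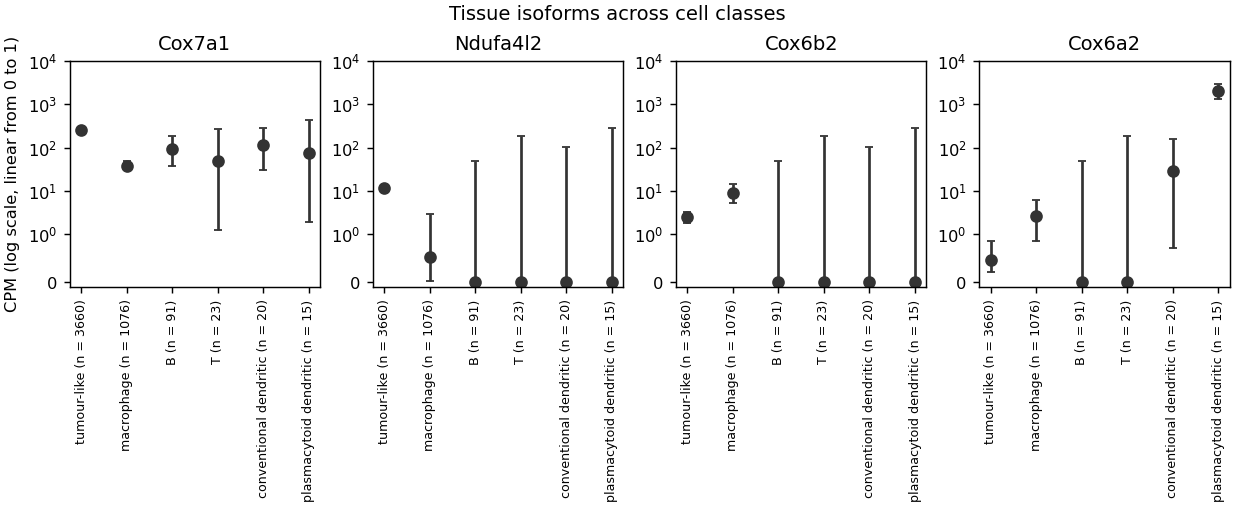
Level in CPM (vertical axis, log scale above 1 and linear below) of Cox7a1, Ndufa4l2, Cox6b2 and Cox6a2 in tumour-like cells, macrophages and the small classes of B, T, conventional dendritic and plasmacytoid dendritic cells (numbers of cells on the horizontal axis); bars are exact Poisson 95% intervals. Cox7a1 is highest in tumour-like cells, with wide intervals in the small classes, and Cox6a2 is highest in the 15 plasmacytoid dendritic cells at 2046 CPM.

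The small classes give context for the mitochondrial genes. The mitochondrial share of UMIs per cell had a median of 3.37% in tumour-like cells (quartiles 2.69 and 4.32%) and 1.64% in macrophages (1.25 and 2.05%). Medians were 1.57% in 23 T cells, 2.12% in 91 B cells, 1.004% in 20 conventional dendritic cells and 2.81% in 15 plasmacytoid dendritic cells. All lay below the tumour-like median, and the T cell and conventional dendritic cell medians lay below that of macrophages. Median depths were 792 UMIs in the T cells, 753 in the B cells, 1656 in the conventional and 868 in the plasmacytoid dendritic cells. They were 1639.5 in macrophages and 5007 in tumour-like cells, and these shares were not matched for depth. Haemoglobin genes reached 46533 CPM in the B cells and 41840 CPM in the conventional dendritic cells, and how far that lowers their other shares was not tested.

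The mitochondrial level of tumour-like cells varied with the depth of the cell, and that of the nuclear subunits less so. In tumour-like cells the mitochondrial sum was 78198 CPM in 50 cells of 500 to 1000 UMIs and 70370 CPM in 207 cells of 1000 to 2000 UMIs. It was 37930 CPM in 1567 cells of 2000 to 5000 UMIs, 37259 CPM in 1617 cells of 5000 to 10000 and 34271 CPM in 219 cells of 10000 to 20000. The step thus lay between the cells below and above 2000 UMIs. Macrophages stayed lower, at 22945 CPM (126 cells), 16445 CPM (633 cells) and 18129 CPM (315 cells) in the first 3 ranges. The nuclear subunits in tumour-like cells went from 47399.9 CPM in the shallowest to 59053 CPM in the deepest cells. The ratio of macrophages over tumour-like cells for the mitochondrial set was 0.293 at 500 to 1000 UMIs, 0.234 at 1000 to 2000, where most macrophages lay, and 0.478 at 2000 to 5000. For the nuclear set it was 0.765, 0.743 and 0.681. The mitochondrial ratio was thus below 1 in each of these ranges, but its size depended on the depth of the cells compared.

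**Figure D4:**
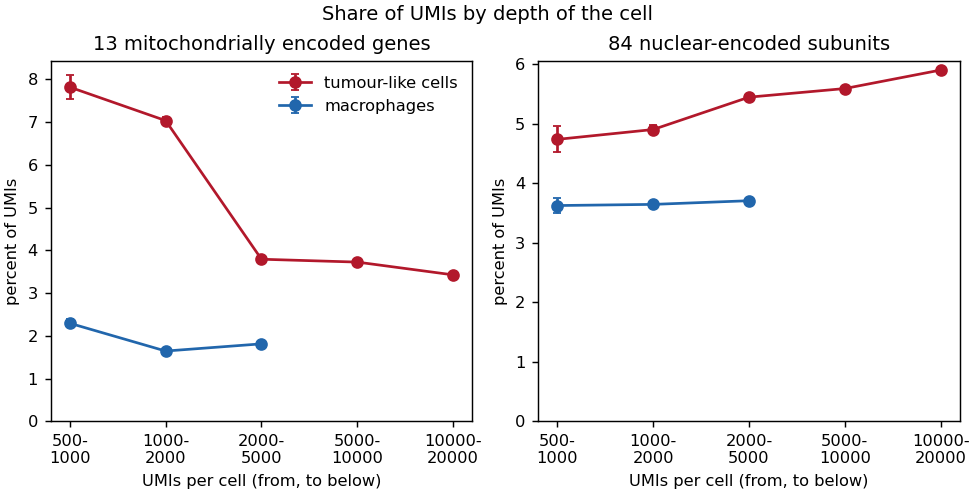
Share of UMIs in percent (vertical axes) from the 13 mitochondrially encoded genes (left) and the 84 nuclear-encoded subunits (right) by the UMIs of the cell (horizontal axes), in tumour-like cells and macrophages; bars are exact Poisson 95% intervals, and ranges with under 20 cells are left out. The mitochondrial share of tumour-like cells drops between 1000 to 2000 and 2000 to 5000 UMIs, and macrophages lie below tumour-like cells in each range plotted for both.

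The limit on the mitochondrial share also bears on these genes, since it removes cells by the quantity measured. It removed 519 barcodes that passed the other limits, with a median of 1095 UMIs, and 264 of them met the tumour-like marker rule and 1 the macrophage rule. Nuclear subunits made up 4.31% of the UMIs of the removed barcodes. There was no gap at the limit, with 57 barcodes at 14 to 15% and 63 at 15 to 16%. Limits of 10% and 25% gave ratios of 0.488 and 0.434 for the mitochondrial set.

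From cell to cell, the sum of the mitochondrial genes varied more than that of the nuclear subunits. At 1000 UMIs per cell, tumour-like cells held a median of 34 mitochondrial UMIs (5th to 95th percentile 17 to 94) and 55 of nuclear subunits (38 to 73). Macrophages held 16 (7 to 28) and 36 (25 to 49). The variance divided by the mean was 14.4 for the mitochondrial and 2.08 for the nuclear sum in tumour-like cells, and 3.35 and 1.62 in macrophages. The sums of the 2 genomes were barely related across cells, with Pearson's r of -0.13 over 3610 tumour-like cells and -0.03 over 950 macrophages of the same library, both sums being parts of a fixed total. Among single members in tumour-like cells at 2000 UMIs, Cox6c had a variance over mean of 1.48, Cox8a 1.46, Cox7a1 1.36, mt-Atp6 7.27 and mt-Co1 6.94. This measure rises with the level of a gene, and Cox7a1 was at 259.7 CPM and mt-Atp6 at 10213 CPM in these cells. The single-gene values therefore do not rank the genes by how much they varied.

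Tumour-like cells with 3 or more UMIs of mitosis genes such as Top2a and Mki67 (237 cells, median 7633 UMIs) were set beside those with 0 (2977 cells, median 4775 UMIs). Of 100 members measured in this comparison, 1 was higher and 0 were lower by 2-fold or more, where 4.11% of all genes were higher and 1.76% lower. The 1 member was Ndufa4l2, at 34.8 CPM (66 UMIs) with and 8.93 CPM (137 UMIs) without mitosis genes (3.903, 2.86 to 5.27). It counted as measured through the subset in which it was high, where its UMIs were in 26 cells, so that the call is a description only. Cox7a1 went the other way without passing 2-fold, at 162 and 270.03 CPM (0.600, 0.533 to 0.674). The nuclear subunits summed to 55759 and 55620 CPM. The whole mitochondrial set was at 35269 CPM with and 37834.5 CPM without mitosis genes. Its complex IV genes were at 16380 and 19677 CPM (0.832, 0.823 to 0.842), with mt-Co1 at 7644 and 9958 CPM. Its complex I genes were at 6048 and 5964 CPM and mt-Cytb at 2019 and 2017 CPM. The complex V genes were at 10822 and 10176 CPM, with mt-Atp6 at 10731 and 10093 CPM.

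Macrophages with 3 or more UMIs of Pf4, Arg1 and Saa3 together (787 cells, median 1829 UMIs) were set beside those with no more than 1 (224 cells, median 1284 UMIs). Of 97 members measured, 2 were higher and 1 was lower by 2-fold or more, where 9.65% of all genes were higher and 9.17% lower. The mitochondrial set was at 18123 CPM in the first and 14807 CPM in the second subset (1.22, 1.19 to 1.26), and the nuclear subunits at 36947.5 and 36239 CPM (1.02, 0.999 to 1.04). The members past 2-fold rest on few UMIs. mt-Nd4l had 49 and 2 UMIs (4.72, 1.24 to 40.05), the assembly factor Ndufaf3 36 and 3 (2.31, 0.730 to 11.7), and Cox6b2 11 and 6 (0.353, 0.1197 to 1.16). mt-Nd4l and Cox6b2 were under 10 CPM in one subset and counted as measured through the other.

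Other genes of mitochondrial respiration were counted from lists by the same 2-fold rule, to be read beside the background of 28.7% lower and 16.1% higher. Of the mitochondrial ribosome, 71 of 77 genes were measured, and 16 were lower and 0 higher, with a median log2 ratio of -0.53; Mrpl38 was lowest at 76.8 and 17.8 CPM (0.232) and Mrpl50 highest at 13.7 and 20.5 CPM (1.499). Of 31 genes for assembly of the complexes, Ndufaf and Sdhaf members included, 19 were measured and 7 were lower (Tmem70, Sdhaf4, Ndufaf4, Cox19, Cox14, Uqcc2 and Uqcc3), with a median of -0.62. Cox19, a factor for copper delivery to complex IV, was lowest at 96.3 and 29.9 CPM (0.310, 0.234 to 0.404), and Cox16 highest at 17.3 and 18.4 CPM (1.06, 0.729 to 1.51). Genes for expression of the mitochondrial genome were sparse, 6 of 14 being measured. Tfam, the factor that packages mitochondrial DNA and starts its transcription, was the 1 past 2-fold, at 19.6 CPM (391 UMIs) and 8.40 CPM (16 UMIs), a ratio of 0.429 (0.243 to 0.706), and counted as measured through its tumour-like level. Polg was highest at 11.3 and 9.97 CPM (0.886, 0.524 to 1.42).

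The citric acid cycle list was measured in full, 17 genes, with 5 lower, Suclg2 and Idh2 among them, 0 higher and a median of -0.22. Suclg2, a subunit of succinyl-CoA ligase, was lowest at 28.7 and 9.44 CPM (0.330, 0.194 to 0.526) and counted as measured through its tumour-like level. Dlst was highest at 13.9 and 19.4 CPM (1.40, 0.966 to 1.98). Of 26 genes for protein import 19 were measured, with 4 lower (Tomm40, Timm44, Timm9 and Tomm22), 0 higher and a median of -0.64. Timm9 was lowest at 24.5 and 9.44 CPM (0.385) and also counted as measured through its tumour-like level. Timm13 was highest at 262 and 325 CPM (1.24). Of 8 nuclear regulators only Yy1 (20.3 and 20.99 CPM, 1.04, 0.729 to 1.44) and Esrra (12.5 and 15.7 CPM, 1.26, 0.832 to 1.84) were measured, and both intervals include 1.

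The carriers and uncouplers held the list members that were higher in macrophages. Ucp2, a carrier of the mitochondrial inner membrane, was at 208 CPM in tumour-like cells and 727 CPM in macrophages (3.50, 3.29 to 3.72), and the ADP/ATP carrier Slc25a5 at 113 and 303 CPM (2.69, 2.45 to 2.95). Slc25a4, the form of the ADP/ATP carrier known from heart and muscle, was at 383 and 137 CPM (0.358, 0.315 to 0.405). These were 2 higher and 1 lower of 8 measured genes of 10, with a median of -0.51. The ADP/ATP carriers were thus called in opposite directions.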

How the data were processed

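The deposited counts are whole UMI counts of a 10x Genomics library, per the labels and the file headers, and hold all of its barcodes (737280 barcodes, 35733776 UMIs). No aligner, build or chemistry is given in the sources used here, so levels were not ranked between genes. The table of the 8 cultured libraries has 8 value columns with names found in none of the sample labels; they were not used here.

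CPM values are a class's UMIs of a gene over all its UMIs, counts per 1e6. Levels carry exact Poisson, ratios exact conditional binomial and shares exact Clopper-Pearson 95% intervals, and a class with 0 UMIs was set to 3 counts. The members, gene lists, class rules and comparisons were chosen with earlier results of these data known. Genes named in the text are the mitochondrially encoded members, members past 2-fold, the highest and lowest nuclear subunit of each complex, tissue isoforms, a set of catalytic or iron-bearing subunits, and the extremes of each list. One list gene is not reported here by name. Class depths ranged from 520 to 19486 UMIs per tumour-like cell and from 500 to 5459 per macrophage. Doublets were left in; barcodes with both marker sets, 71 before the mitochondrial limit and 3 of these above it, were in neither class, and removal of Scrublet's 87 calls (1.35%, 34 of them tumour-like, 0 macrophages) was an alternative. Free RNA was estimated from markers of the opposite class, at 5.70% of tumour-like and 11.6% of macrophage UMIs with the profile of barcodes with 1 to 50 UMIs, and 8.79% and 9.00% with that of 100 to 200. Gene positions are from GENCODE M21 on GRCm38 and promoters from RefSeq on GRCm38.p6. The ratio script was tested on simulated data. Tools were Python 3.11.15, numpy 2.4.6, scipy 1.17.1, pandas 2.3.3, scanpy 1.11.5 and matplotlib 3.10.9.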

Additional observations from a re-analysis of the deposited data

Results flagged for a closer look

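Of the barcodes left out for a mitochondrial share above 15%, 264 met the tumour-like marker rule and 1 the macrophage rule. They were singled out because they carry the measured genes and enter no comparison at the 15% limit. The alternative limit of 25% took many of them in and left out 42 that met the tumour-like rule. In all 519 barcodes above 15%, mitochondrially encoded genes made up 21.0% of UMIs.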

How the results depend on the processing

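No paired analysis was possible because the ascites values come from 1 library with no test and the columns of the cultured libraries carry no labels. Members lower in macrophages numbered 9 with ratios divided by the median ratio and 46 at a threshold of 1.5-fold, beside 23; the remaining alternatives gave 21 to 30. With no filter on low values, 5 members were higher: Cox4i2, Cox6a2 and Cox6b2, with 5 to 17 UMIs in macrophages, and Cox8b and Cox8c, with 0 there, which passed through the floor of 3 counts. The mitochondrial ratio of 0.466 became 0.459 in cells of at least 1000 UMIs, 0.488 and 0.434 at limits of 10% and 25% mitochondrial, 0.456 scaled over nuclear UMIs, 0.599 divided by the median ratio, 0.478 in cells of 2000 to 5000 UMIs (0.234 and 0.293 in the shallower ranges), 0.387 and 0.458 with free RNA of 1 to 50 and of 100 to 200 UMIs subtracted, and 0.445 as a mean over cells. The nuclear ratio of 0.659 became 0.646 scaled over nuclear UMIs, 0.847 divided by the median ratio, 0.681 in cells of 2000 to 5000 UMIs, 0.611 and 0.615 with the 2 free RNA profiles subtracted, 0.667 as a mean over cells and 0.666 without cells of 20 or more haemoglobin UMIs, an alternative chosen after seeing the data. The causes of these shifts were not tested. The 2 free RNA profiles differed for the mitochondrial genes, which made up 4.06% of the profile of 1 to 50 UMIs and 0.644% of that of 100 to 200. Their level in free RNA was therefore not settled. Of 1404 values for single members and sets, 1130 moved by less than their counting interval, 274 by more, and 0 changed direction from a called value. Those that moved over 1.5 times were Cox7a1 with each free RNA profile (0.0334 and 0.0303, beside 0.147) and Ndufaf7 in cells of 2000 to 5000 UMIs (0.477, beside 0.744). Counting depth limits Cox4i2, Cox6a2, Cox7b2, Cox8b, Cox8c, Ndufa4l2, Ndufaf1, Ndufaf5, Atp5s and mt-Nd6, with 8 or fewer UMIs in macrophages.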
